A study of Mus musculus with 9 samples.

Results

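The oxidative phosphorylation system of the inner mitochondrial membrane was followed through 78 of its nuclear genes in microdissected atrioventricular (AV) nodes of mice. Genes were taken by symbol, as those beginning with Nduf and a subunit letter and number, Sdh with a single letter, Uqcr, Cox followed by a number and a, b or c, or Atp5. Of 34198 symbols in the table, 84 matched, and 78 of these had at least 1 CPM (read counts on a scale common to all libraries) in at least 3 of the 9 libraries. By symbol they divide into 37 for complex I, 4 for complex II, 8 for complex III, 14 for complex IV and 15 for complex V.

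The nodes came from C57BL/6J mice in 3 groups of 3 libraries, which the design text calls biological replicates. Libraries 1 to 3 are control, libraries 4 to 6 are Cx3cr1 Cx43-/-, and libraries 7 to 9 are Cd11bDTR and labelled macrophage-depleted. In the Cx3cr1 Cx43-/- genotype, cells that express the Cx3cr1 receptor, which include cardiac macrophages, lack connexin 43, the gap junction protein encoded by Gja1. In Cd11bDTR mice a diphtheria toxin receptor is driven by the promoter of CD11b, which is active in monocytes and neutrophils as well as in macrophages. The sources used here give no age or sex of the mice, no toxin dose and no time of sampling, and do not say whether control mice received toxin or whether nodes were pooled.

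Each complex carries out a step of respiration. Complex I oxidises NADH and complex II oxidises succinate, and both pass electrons to ubiquinone. Complex III hands them to cytochrome c and complex IV to oxygen, and complex V uses the resulting proton gradient to make ATP. The heart depends on this system for most of its ATP, and its mitochondria carry muscle isoforms of some complex IV subunits. Transcription of many of the nuclear genes is known to depend on the factors NRF1, GABP (an ETS family member) and YY1, with the coactivator PGC-1alpha and the estrogen-related receptors.

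The symbol rule has edges. Ndufa4 is now known as a complex IV subunit and Ndufa4l2 as its paralog, Cox7a2l is a factor of supercomplex assembly, and Atp5s and Atp5sl do not encode subunits of the ATP synthase. The rule left out Cox4i1, Cox4i2, Cyc1, Cycs and Ndufab1, which are given as companions. The 6 symbols under the CPM minimum were Atp5g2 (highest library 0.59 CPM), Atp5l (0.94 CPM), Atp5l-ps1 (0.15 CPM), Atp5l2 (0.24 CPM), Cox7b2 (0.60 CPM) and Cox8c, which was listed at 0 in all 9 libraries. Atp5l, Atp5g1, Atp5g2, Cox7c, Ndufs5 and Ndufb4 have near-identical copies or pseudogenes elsewhere in the genome. The sources used here do not say how reads shared with such copies were counted, so their levels are uncertain.

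Promoter sequences of members that hold consensus cores of the known regulators are shown first, since these factors are known to act on genes of several complexes. Most members with a window held none of the cores. They are RefSeq sequences of build GRCm38.p6, from 170 bases before to 30 bases after the annotated start, 5′ to 3′ on the gene's strand. Capitals mark the NRF1 core GCGCATGCG and the ETS core CCGGAAG, on either strand. Matches to the NRF1 core on both strands overlap in Atp5k and Cox6a1. Atp5k (subunit e of complex V), Cox6a1 (the widely expressed complex IV subunit) and Uqcr11 (a small complex III subunit) were the members that hold both cores, and Sdhd (a membrane anchor of complex II), which holds the ETS core, was lower after macrophage depletion.
Atp5k, chr5:108434370-108434569, minus strand: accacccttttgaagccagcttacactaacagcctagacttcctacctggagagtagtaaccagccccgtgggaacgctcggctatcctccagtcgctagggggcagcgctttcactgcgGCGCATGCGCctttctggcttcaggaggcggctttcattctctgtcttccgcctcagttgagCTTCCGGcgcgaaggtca
Cox6a1, chr5:115348929-115349128, minus strand: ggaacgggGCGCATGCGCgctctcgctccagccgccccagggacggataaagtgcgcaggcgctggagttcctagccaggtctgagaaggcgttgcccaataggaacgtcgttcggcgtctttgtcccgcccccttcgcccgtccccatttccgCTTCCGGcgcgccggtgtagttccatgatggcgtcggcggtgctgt
Uqcr11, chr10:80406792-80406991, minus strand: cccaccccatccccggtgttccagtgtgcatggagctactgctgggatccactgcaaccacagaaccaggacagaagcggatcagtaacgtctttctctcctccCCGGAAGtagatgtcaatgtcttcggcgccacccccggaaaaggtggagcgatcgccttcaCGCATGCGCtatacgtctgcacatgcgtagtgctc
Sdhd, chr9:50603820-50604019, minus strand: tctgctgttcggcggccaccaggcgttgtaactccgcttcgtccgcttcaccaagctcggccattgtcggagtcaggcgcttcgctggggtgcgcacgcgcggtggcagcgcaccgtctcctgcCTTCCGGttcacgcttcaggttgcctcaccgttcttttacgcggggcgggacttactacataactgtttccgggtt

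Windows of 300 bases (250 before to 50 after the start) were at hand for 66 of the 78 members. The NRF1 core was in 6 of them (9.09%), the ETS core in 15 (22.7%) and the YY1 core AAGATGGCG in 8 (12.1%), with both strands searched. Among 10141 tested genes with a window these shares were 3.99%, 19.1% and 3.51%, and among all 32851 promoter windows of the same length they were 1.75%, 8.86% and 1.40%. At least 1 of the 3 cores was in 25 members (37.9%), in 24.7% of the tested genes and in 11.4% of all windows. In macrophage-depleted against control nodes the 25 members with a core had a median log2 change of -0.19 and 4 of them were lower. The 41 without a core had a median of -0.22, and 4 of them were lower. Among all 12925 tested genes the median was -0.49 and 33.0% were lower, where lower means a limma adjusted p under 0.05. A match is a description of the letters and not of a bound site.

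A few facts of the libraries bear on every comparison. The deposited CPM of listed genes took up 42.8% to 48.7% of the CPM denominator in control, 46.8% to 47.9% in Cx3cr1 Cx43-/- and 44.0%, 37.7% and 28.3% in libraries 7, 8 and 9. The smallest steps between values show that a gene at 1 CPM rested on about 52.1 to 64.9 reads, depending on the library. Gja1 stood at 246, 163 and 211 CPM in control, 179, 229 and 250 CPM in Cx3cr1 Cx43-/- and 89.9, 56.8 and 68.3 CPM in depleted nodes. Against control it changed by 0.09 (SE 0.22) in Cx3cr1 Cx43-/- whole nodes, where other cells also express it, and by -1.53 (SE 0.22, limma adjusted p = 2.47e-05) in depleted nodes. Of 9 resident macrophage markers, 8 were lower in depleted nodes, and their summed level was 57.0 to 63.6 CPM there against 235 to 374 CPM in control. AV node markers were present in control, with a summed level of 567 to 736 CPM, although Isl1 was at 0 in at least 1 library. In bulk samples fewer cells of a type and less RNA per cell cannot be told apart.

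The first comparison asked how the respiratory chain genes stood in the node after macrophage depletion. On the deposited scale 11 of the 78 members were lower (14.1%) and 0 were higher by limma, at an adjusted p under 0.05 over 12925 tested genes. Among all tested genes 33.0% were lower and 3.23% higher, so the members' share of lower calls lay under that background. The median log2 change was -0.22 for the members and -0.49 for all tested genes, and 62 of the 78 members lay above the latter. Neither background was matched for transcript length, which is taken up below. At an unadjusted p under 0.05, 18 members passed, of which Atp5e and Ndufa2 had positive changes. The share of all tested genes at that unadjusted threshold was not taken for any comparison. Depleted and control libraries did not overlap for 19 members, all lower, against 38.0% of all tested genes lower and 3.61% higher. The changes by complex are shown in the plot of log2 change for all members.

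**Figure D1:**
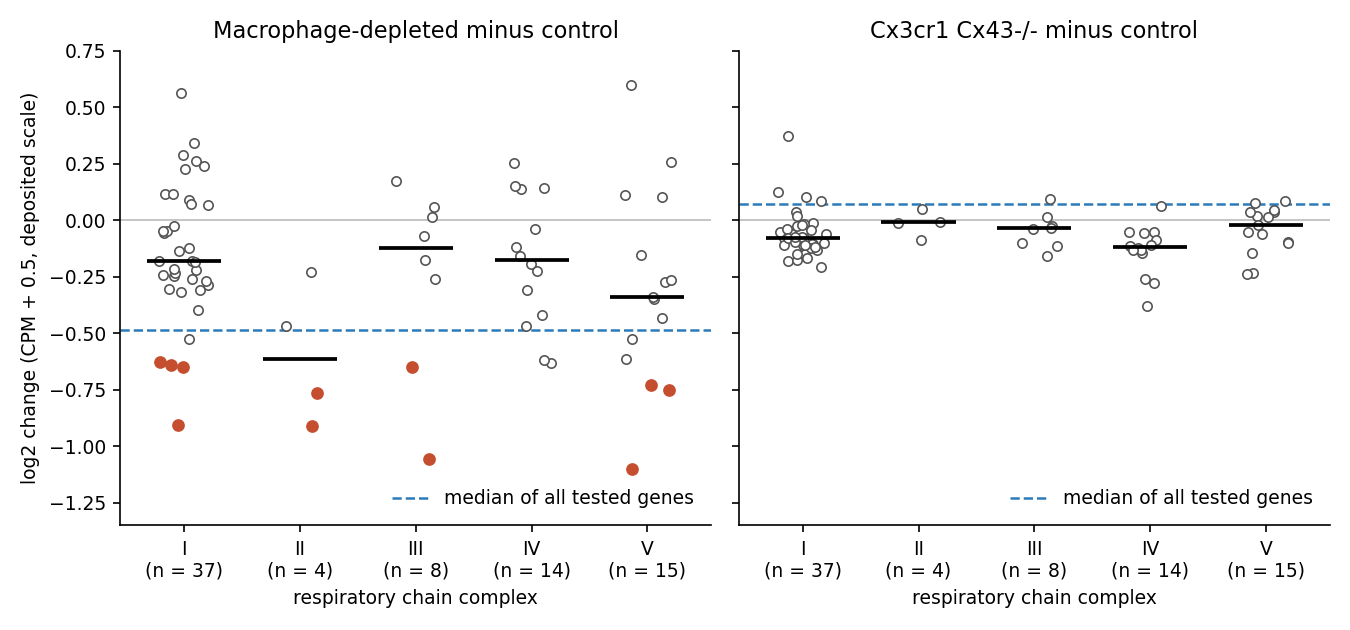
Log2 change (CPM + 0.5, deposited scale) of each of the 78 members by complex, for macrophage-depleted minus control (left) and Cx3cr1 Cx43-/- minus control (right). Filled points passed the limma test at an adjusted p under 0.05, open points did not, black bars are medians of the complex and the dashed line is the median of all tested genes. On the left 11 members are filled, all below 0, and on the right none is.

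Complex II, which also works as succinate dehydrogenase in the TCA cycle, had 2 of its 4 genes lower and a median of -0.62. Sdha, the flavoprotein that oxidises succinate, stood at 758, 703 and 672 CPM in control, 713, 719 and 684 CPM in Cx3cr1 Cx43-/- and 517, 368 and 284 CPM in depleted nodes. All 3 depleted libraries lay below all others, and the log2 difference from control was -0.91 (SE 0.23, limma adjusted p = 0.00464). Sdhd, a membrane anchor, stood at 227, 241 and 246 CPM in control, 258, 238 and 244 CPM in Cx3cr1 Cx43-/- and 176, 143 and 109 CPM in depleted nodes. Its groups did not overlap either (log2 difference -0.76, SE 0.21, limma adjusted p = 0.00697). The other anchor, Sdhc, was at 279, 287 and 283 CPM in control and 278, 202 and 152 CPM in depleted nodes and missed the threshold (-0.47, SE 0.22, limma adjusted p = 0.10). The iron-sulfur subunit Sdhb overlapped, at 364, 483 and 418 CPM against 443, 392 and 263 CPM.

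In complex III 2 of 8 members were lower, the core proteins Uqcrc2 and Uqcrc1. Uqcrc2, a core protein that faces the matrix, stood at 401, 314 and 377 CPM in control, 358, 408 and 394 CPM in Cx3cr1 Cx43-/- and 283, 153 and 121 CPM in depleted nodes. The depleted values lay below all others, and the log2 difference was -1.06 (SE 0.25, adjusted p = 0.00261 by limma). Its partner Uqcrc1 stood at 563, 495 and 562 CPM in control, 557, 536 and 539 CPM in Cx3cr1 Cx43-/- and 448, 355 and 255 CPM in depleted nodes (-0.65, SE 0.23, limma adjusted p = 0.0286). Its call was lost without library 1, 3 or 8. None of the other 6 members passed, and their median was -0.03. Among them were the Rieske iron-sulfur protein Uqcrfs1, at 447, 472 and 509 CPM in control against 468, 470 and 283 CPM, and the hinge protein Uqcrh, at 302, 417 and 361 CPM against 437, 524 and 285 CPM. In both genes only library 9 lay below control. Cyc1, cytochrome c1 and the remaining catalytic subunit with a nuclear gene, is outside the symbol rule and was lower, at 377, 327 and 372 CPM in control against 272, 186 and 135 CPM (-0.91, SE 0.23, limma adjusted p = 0.00408).

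In complex V 3 of 15 members were lower on the deposited scale, among them the catalytic pair. Atp5b, the beta subunit that makes ATP, stood at 2889, 2401 and 2638 CPM in control, 2681, 2736 and 2588 CPM in Cx3cr1 Cx43-/- and 2225, 1537 and 1122 CPM in depleted nodes (-0.75, SE 0.28, limma adjusted p = 0.0391). Atp5a1, the alpha subunit, stood at 2291, 2101 and 2189 CPM in control, 2275, 2263 and 2200 CPM in Cx3cr1 Cx43-/- and 1776, 1317 and 987 CPM in depleted nodes (-0.73, SE 0.26, limma adjusted p = 0.0347). In both genes library 7 lay nearest to control and library 9 lowest. The Atp5a1 call was lost without library 1, 2, 3 or 8 and the Atp5b call also without library 9 (largest limma adjusted p 0.124 and 0.149). None of the other 11 subunit genes passed, with a median of -0.26 and a range from -0.53 for the gamma subunit Atp5c1 to 0.60 for the epsilon subunit Atp5e. Atp5sl was also lower, at 30.2, 21.9 and 25.9 CPM in control, 26.7, 28.9 and 26.7 CPM in Cx3cr1 Cx43-/- and 17.1, 9.82 and 9.58 CPM in depleted nodes (-1.10, SE 0.24, limma adjusted p = 0.00144). It had the most negative change of the 78 on the deposited scale and on both rescalings given below and, despite its symbol, does not encode a subunit of complex V. Atp5s was at 12.7, 9.98 and 12.7 CPM against 8.70, 8.15 and 5.91 CPM and missed the threshold (limma adjusted p = 0.0575).

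Complex I, the largest complex, had 4 of 37 members lower and a median of -0.18. Ndufs1, the large iron-sulfur subunit of the NADH-oxidising arm, stood at 348, 293 and 324 CPM in control, 346, 367 and 339 CPM in Cx3cr1 Cx43-/- and 260, 194 and 169 CPM in depleted nodes, without overlap (-0.65, SE 0.21, limma adjusted p = 0.0199). Ndufs3, a core subunit of the arm that reaches ubiquinone, was at 67.2, 72.7 and 69.8 CPM in control against 63.0, 46.6 and 31.1 CPM (-0.63, SE 0.23, limma adjusted p = 0.0338). Ndufa10, an accessory subunit of the membrane arm, was at 292, 223 and 279 CPM against 214, 181 and 123 CPM (-0.64, SE 0.22, limma adjusted p = 0.0264). The fourth was the accessory Ndufs5, at 16.6, 12.5 and 18.02 CPM against 15.8, 6.47 and 5 CPM, where library 7 overlapped control (-0.90, SE 0.31, limma adjusted p = 0.0256). With 1 library left out the Ndufs3 call was kept in 1 of 6 fits, that without library 7, the Ndufs5 call in 2, the Ndufs1 call in 3 and the Ndufa10 call in 4. Ndufv1, which binds NADH and the flavin, did not pass, at 436, 469 and 444 CPM against 435, 418 and 265 CPM (-0.30, SE 0.22). The 7 core subunits with nuclear genes had a median of -0.30 with 2 lower, and 28 other Nduf genes had a median of -0.16 with 2 lower.

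Of the 14 complex IV members 0 passed the test, with a median of -0.17. A single member had an unadjusted p under 0.05, Cox8a, the widely expressed isoform of subunit 8, at 58.2, 61.6 and 59.7 CPM in control against 52.7, 49.3 and 22.3 CPM in depleted nodes (-0.62, SE 0.25, limma adjusted p = 0.0543). Cox5a, a matrix-facing subunit, was at 206, 268 and 239 CPM against 227, 185 and 118 CPM (limma adjusted p = 0.12). Cox6b1, which faces the intermembrane space, was at 415, 533 and 501 CPM against 566, 653 and 401 CPM. The testis isoform Cox6b2 was near the CPM minimum, at 1.26, 1.36 and 1.5 CPM against 0.83, 0.40 and 0.97 CPM. Ndufa4 lay on both sides of control, at 394, 479 and 460 CPM against 485, 530 and 306 CPM, and Ndufa4l2 and Cox7a2l were not free of overlap either. Cox4i1, outside the symbol rule, was at 1000, 1182 and 1214 CPM against 1321, 1467 and 970 CPM (0.13, SE 0.24, limma adjusted p = 0.69).

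Within the depleted group the members moved with the library. Library 9 was the lowest of all 9 libraries for 67 of the 78 members, and library 8 was the highest for 28. These counts were not taken over all tested genes. Library 9 also had the smallest share of CPM in listed genes (28.3%). The members' share of its listed total, 4.90%, lay within the control range of 4.51% to 5.57%. Atp5e, the epsilon subunit of complex V, was at 333, 647 and 455 CPM in control and 673, 930 and 545 CPM in depleted nodes (0.60, SE 0.27, limma adjusted p = 0.0806). Ndufa2, an accessory subunit of complex I, was at 149, 261 and 207 CPM against 273, 434 and 219 CPM (0.56, SE 0.25, limma adjusted p = 0.0852). These 2 genes had the highest changes of the 78 on the deposited scale and are named here after their values were seen. The median coefficient of variation over members was 9.25% in control, 10.3% in Cx3cr1 Cx43-/- and 26.9% in depleted nodes. The plot of CPM by library shows 12 members.

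**Figure D2:**
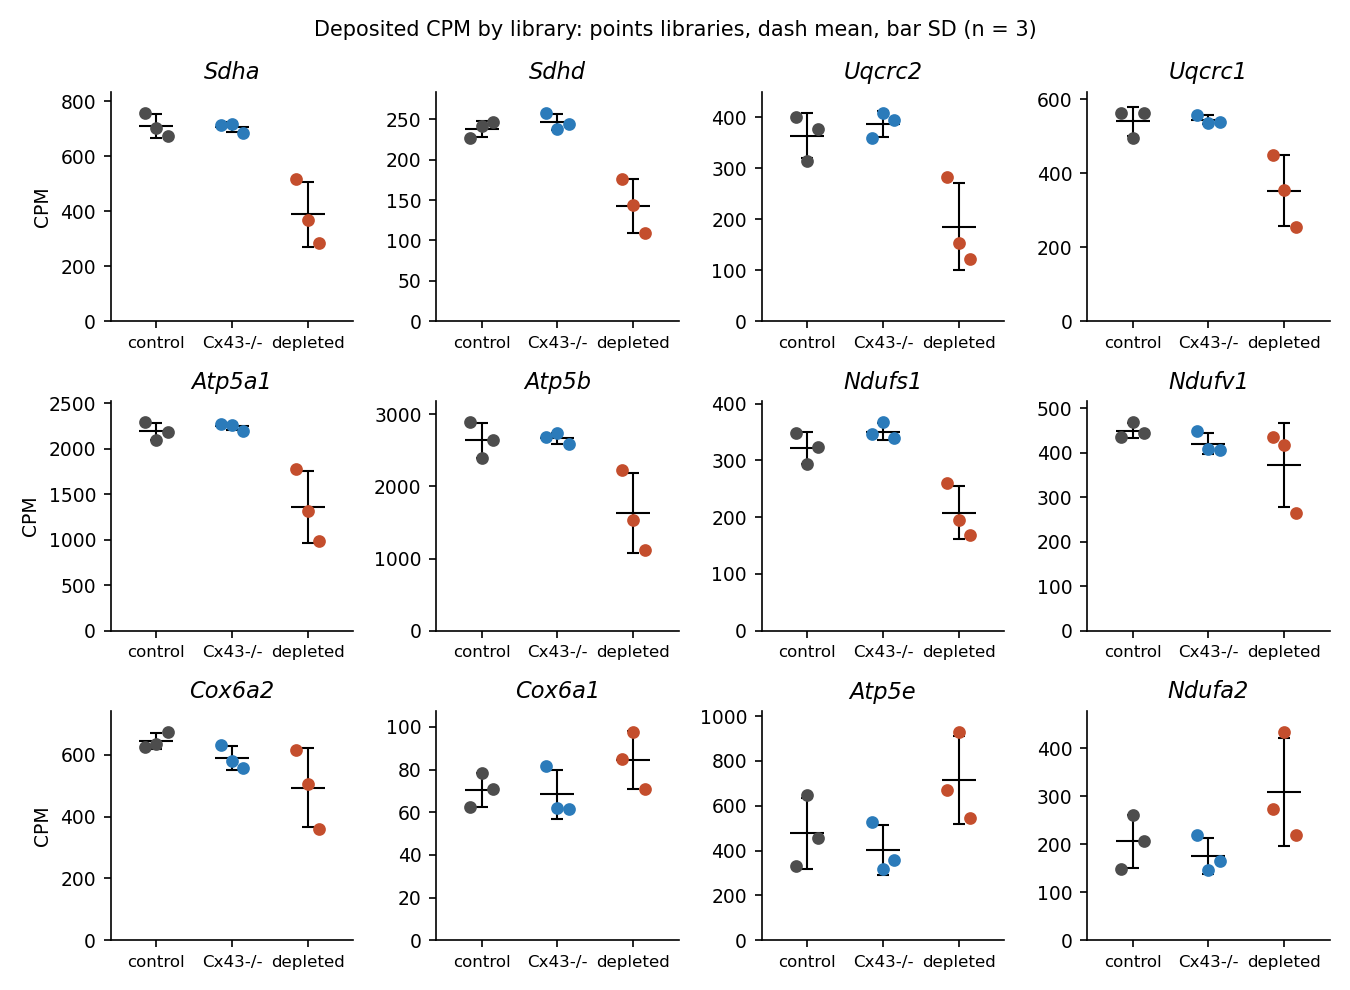
Deposited CPM (vertical axis, from 0) of 12 members in each library of the control, Cx3cr1 Cx43-/- and macrophage-depleted groups. Points are libraries in order of number, dashes are means and bars are SD (n = 3). The 3 depleted libraries of Sdha, at 517, 368 and 284 CPM, lie below all others, while those of Atp5e, at 673, 930 and 545 CPM, overlap control.

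The direction of the members as a group depended on how libraries were scaled. The share of CPM in listed genes was lowest in libraries 8 and 9, while that of library 7 lay within the control range. With each library rescaled to a common total over listed genes, 13 members were higher and 9 lower, against 8.79% higher and 19.6% lower of all tested genes. The median was then 0.12 for members and -0.18 for all tested genes. With median-of-ratios scaling 20 members were higher and 3 lower, against 13.1% and 13.0%, with medians of 0.27 and -0.03. The members' median exceeded that of all tested genes by 0.27, 0.30 and 0.31 on the 3 scales, without matching for length. Only Sdha, Uqcrc2 and Atp5sl were called lower on all 3, and 0 members were called higher on all 3. Such counts over all tested genes were not taken for any comparison. On the common total Sdha changed by -0.57 and Uqcrc2 by -0.72, and with median-of-ratios scaling by -0.42 and -0.57. These 3 calls were also kept with each of the 6 libraries left out in turn on the deposited scale, with largest adjusted p of 0.0304 for Sdha, 0.0192 for Uqcrc2 and 0.0136 for Atp5sl. Sdhd was kept in the 6 such fits too but not with median-of-ratios scaling. Each of the other 7 calls was lost with median-of-ratios scaling and without control library 1 or 3, and Ndufs3 and Ndufs5 were lost on the common total as well.

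The 13 members called higher on the common total were also higher with median-of-ratios scaling. They were 8 complex I genes (Ndufa2, Ndufa3, Ndufa7, Ndufb2, Ndufb4, Ndufc1, Ndufc2 and the core gene Ndufv2), Uqcrh and Uqcrq of complex III, Cox6a1 and Cox6b1 of complex IV and Atp5e. Cox6a1 was at 62.4, 78.2 and 71.0 CPM in control and 84.9, 97.7 and 70.9 CPM in depleted nodes on the deposited scale, with a log2 change of 0.25 there, 0.59 on the common total and 0.74 with median-of-ratios scaling. No member of complex II was called higher on any of the 3 scales. The plot of members under 3 scalings shows the shift.

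**Figure D3:**
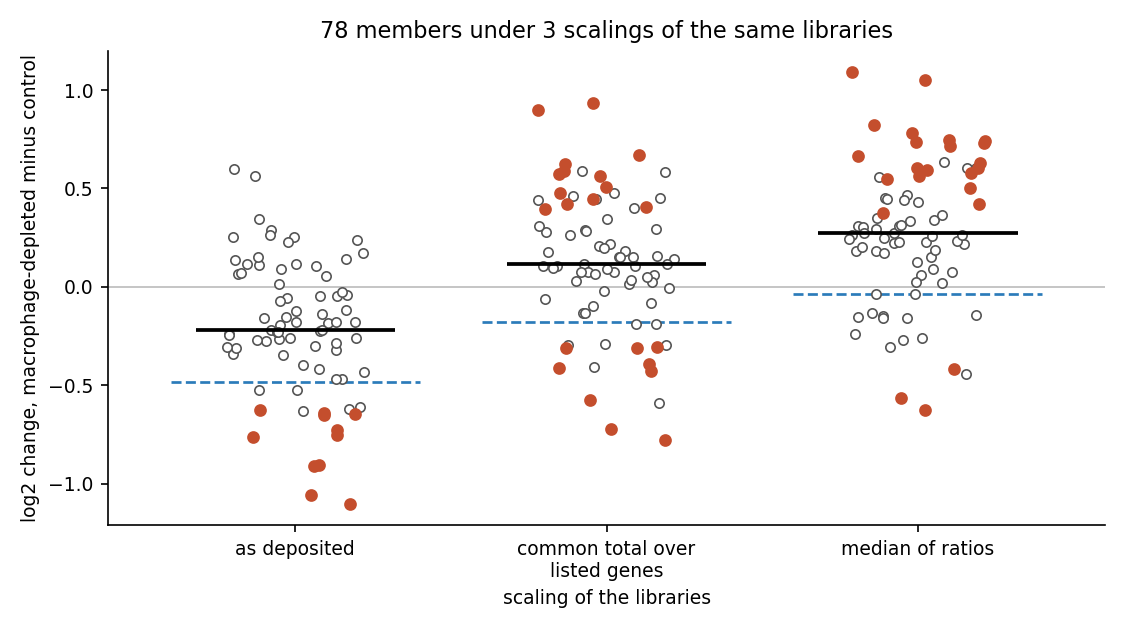
Log2 change of the 78 members, macrophage-depleted minus control, under 3 scalings of the same 6 libraries. Filled points passed the limma test at an adjusted p under 0.05, black bars are the members' medians (-0.22, 0.12 and 0.27) and dashed lines the medians of all tested genes (-0.49, -0.18 and -0.03).

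The relation of the changes to transcript length was nearly the same on the 3 scales (r = -0.48, -0.48 and -0.47 across members). Across the 78 members the log2 change in depleted nodes fell with the length of the principal transcript in GENCODE M21 on the deposited scale (rho = -0.50, n = 78 genes), by 0.20 per doubling of length. The genes share the same 6 libraries and are not independent replicates, so this is a description. Lengths are those of annotated transcripts, the longest where principal ranks tied. Which transcript was expressed in the node was not tested. Over 12793 tested genes with a length r was -0.18, with a slope of -0.13 per doubling. Over the 9861 tested genes no longer than the longest member r was -0.21 and the slope -0.19, near that of the members. Leaving out each library in turn gave r between -0.52 and -0.43 for the members, and 70 members of up to 2000 nt gave -0.43. With mean level in place of length r was -0.01, and with GC content it was 0.08. The 19 members of up to 600 nt had a median change of 0.01, and none was lower or higher. The 25 above 1200 nt had a median of -0.40 and included 9 of the 11 lower genes. All tested genes in these classes had medians of 0.10 (165 genes, 7.27% lower, 18.2% higher) and -0.52 (11327 genes of up to 10000 nt, 35.2% lower, 2.68% higher). The share of lower calls among the long members was thus near that of genes of such length. Between them, 16 members of over 600 to 800 nt had a median of -0.18 against -0.11 for all 256 genes. For 18 members of over 800 to 1200 nt it was -0.23 against -0.21 for all 772 genes. Members' medians thus lay below those of all tested genes up to 1200 nt and above that in the longest class. With median-of-ratios scaling 9 of the 19 members of up to 600 nt were higher. The share of all genes in that class was not taken on that scale. The members are short, with a median of 870 nt and a range from 360 nt for Cox8b to 4715 nt for Atp5g1, against a median of 3046 nt for all tested genes.

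In complexes I, III and V length ran together with role. Uqcrc1 and Uqcrc2 had a median length of 1775 nt and the other 6 complex III members 541 nt, and Atp5a1 and Atp5b 2194 nt against 838 nt for the other 11 subunit genes. The core genes of complex I had a median of 1623 nt against 748 nt for the other Nduf genes. The parts of role and length cannot be told apart in these pairs. Exceptions to the relation were present by annotated length. Ndufs5 (680 nt) and Cox8a (550 nt) had changes of -0.90 and -0.62, while Ndufb2 (4371 nt) and Ndufv2 (1697 nt) had changes of 0.12 and 0.07.

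Length also moved with single libraries outside the depleted group. Against the mean of all 9 libraries, the members' slope per doubling of length was 0.14, -0.06 and 0.06 in control libraries 1 to 3, 0.04, 0.18 and 0.12 in Cx3cr1 Cx43-/- libraries 4 to 6, and -0.10, -0.23 and -0.15 in depleted libraries 7 to 9. The 3 depleted slopes were the lowest of the 9, and control library 2 had the next lowest. The sources used here give no RNA integrity per library, and its part in these slopes was not tested.

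**Figure D4:**
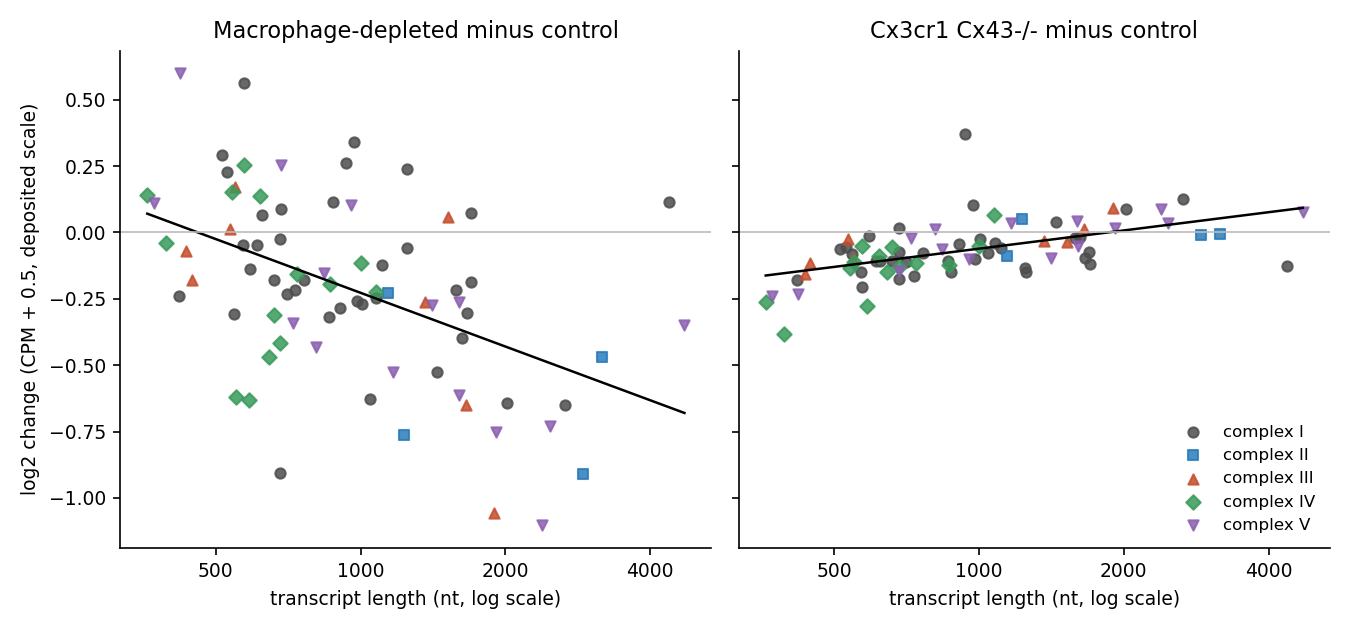
Log2 change (CPM + 0.5, deposited scale) against transcript length (nt, log axis) for the 78 members, coloured by complex, for macrophage-depleted minus control (left) and Cx3cr1 Cx43-/- minus control (right). Lines are least-squares fits. The left line falls by 0.20 per doubling of length and the right line rises by 0.07.

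Isoforms of complex IV were compared as log2 ratios of CPM + 0.5 within a library, which a rescaling moves only through the pseudocount of 0.5. The muscle isoform Cox6a2 stood at 625, 635 and 674 CPM in control, 632, 580 and 557 CPM in Cx3cr1 Cx43-/- and 616, 506 and 360 CPM in depleted nodes. The log2 ratio of Cox6a2 to Cox6a1 was 3.31, 3.01 and 3.24 in control and 2.85, 2.37 and 2.34 in depleted nodes, without overlap, a difference of -0.67 (exact permutation p = 0.1, two-sided). The ratio of the muscle isoform Cox8b to Cox8a moved the other way, from 2.13, 2.77 and 2.44 to 2.82, 3.22 and 3.59, a difference of 0.76 (exact permutation p = 0.1). That of the muscle isoform Cox7a1 to Cox7a2 was 0.45, 0.76 and 0.54 against 0.88, 1 and 0.69, which overlapped (difference 0.27, exact permutation p = 0.2). With 3 against 3 libraries an exact p cannot go below 0.1, and over the 9 ratio tests the smallest adjusted p was 0.15. The 3 differences had both signs. Cox6a2 (680 nt) is longer than Cox6a1 (571 nt), and Cox8b (360 nt) is shorter than Cox8a (550 nt). Cox7a1, in the class of up to 600 nt, is shorter than Cox7a2, in that of over 600 to 800 nt. The part of length in these ratios was not tested.

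**Figure D5:**
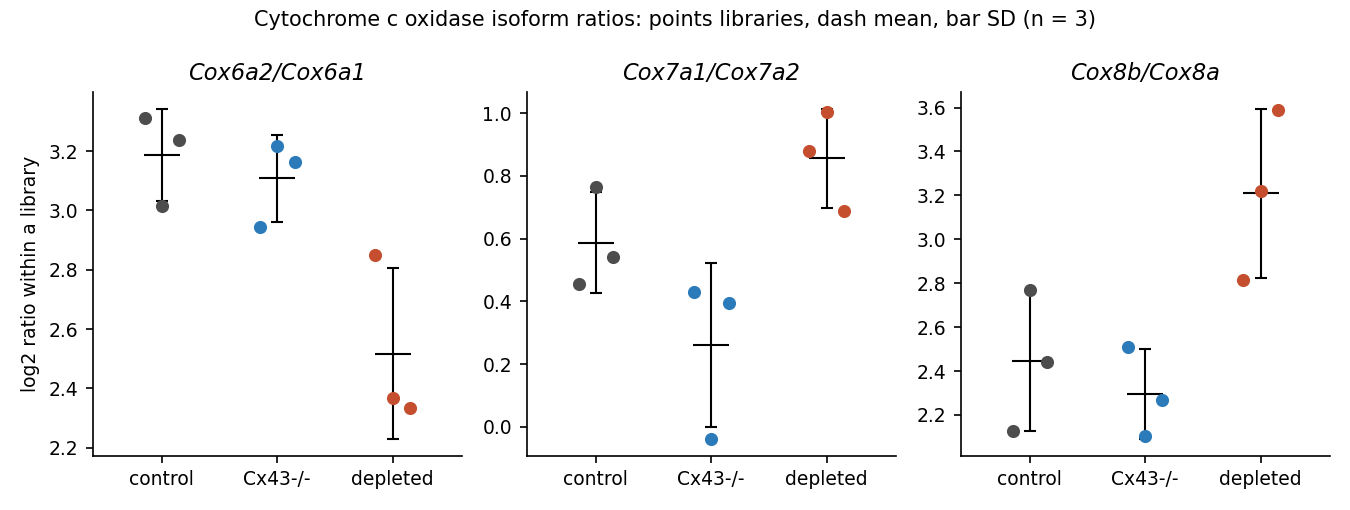
Log2 ratio of 2 isoforms of a complex IV subunit within each library, for Cox6a2 to Cox6a1, Cox7a1 to Cox7a2 and Cox8b to Cox8a, with points for libraries, dashes for means and bars for SD (n = 3). The depleted libraries lie below the other 6 for Cox6a2 to Cox6a1, at 2.85, 2.37 and 2.34, and above them for Cox8b to Cox8a, at 2.82, 3.22 and 3.59.

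As a share of all listed reads the groups overlapped. The members' summed CPM was 4.51%, 5.57% and 5.17% of the listed total in control, 5.17%, 4.40% and 4.58% in Cx3cr1 Cx43-/- and 5.11%, 5.74% and 4.90% in depleted nodes. Means were close relative to their spread (5.25% ± 0.44 in depleted and 5.08% ± 0.54 in control, SD, n = 3, exact permutation p = 0.8). Within the members the makeup differed. Complex I genes made up 29.2%, 31.0% and 30.6% of the members' CPM in control and 31.7%, 35.2% and 33.1% in depleted nodes, and complex II genes 7.41%, 7.19% and 6.91% against 6.29%, 5.10% and 5.83%. Complex IV genes made up 13.3%, 14.9% and 14.1% against 15%, 16.3% and 15.7%, and complex V genes 39.1%, 36.3% and 37.1% against 35.8%, 32.4% and 34.4%. Depleted libraries lay above control for complexes I and IV and below it for complexes II and V, without overlap, while complex III overlapped. No test was run on these parts, which sum to the whole and so do not move independently.

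The second comparison asked whether loss of connexin 43 in Cx3cr1-expressing cells left a mark on the same genes. By limma 0 of 78 members were higher and 0 lower in Cx3cr1 Cx43-/- against control, and 0 had an unadjusted p under 0.05. The fit used 1 spread for all 9 libraries, so the depleted libraries entered these SE and p-values. The members' median coefficient of variation was 26.9% in depleted nodes, against 9.25% in control and 10.3% in Cx3cr1 Cx43-/-. The unadjusted count was not taken in a fit of only these 2 groups. Among all tested genes a single one was lower (0.00774%) and 0 were higher. The members' median was -0.08 and that of all tested genes 0.07, and members ranged from -0.38 for Cox7a1 to 0.37 for Ndufa4l2. Cox7a1 stood at 285, 421 and 341 CPM in control against 340, 205 and 264 CPM, and Ndufa4l2 at 12.1, 7.53 and 14.7 CPM against 15.9, 13.1 and 14.4 CPM, both with overlap. No member's groups were free of overlap. Among all 12925 tested genes, 768 were free of overlap on the higher side and 388 on the lower.

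This comparison shares its control libraries with the first. For genes called lower there, log2 changes in Cx3cr1 Cx43-/- nodes were -0.01 for Sdha, 0.05 for Sdhd, 0.09 for Uqcrc2, 0.01 for Uqcrc1, 0.03 for Atp5a1, 0.02 for Atp5b, 0.09 for Atp5sl, 0.13 for Ndufs1, 0.09 for Ndufa10, -0.08 for Ndufs3 and -0.18 for Ndufs5, with SE of 0.21 to 0.31. The 19 members of up to 600 nt had values below 0 (median -0.13), such as -0.24 for Atp5k, -0.23 for Atp5e, -0.21 for Ndufa2, -0.18 for Ndufa1 and -0.16 for Uqcr10, none of which passed. Across members the change rose with length (r = 0.55, rho = 0.60, n = 78 genes), with a slope of 0.07 per doubling. For the 9861 tested genes no longer than the longest member the slope was 0.04 (r = 0.12). Without control library 2 the members' r was 0.19, and without any other single library it was 0.36 to 0.59. The isoform ratios differed from control by -0.08 for Cox6a2 to Cox6a1, -0.32 for Cox7a1 to Cox7a2 and -0.15 for Cox8b to Cox8a (exact permutation p = 0.5, 0.1 and 0.6).

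The third comparison set depleted nodes against Cx3cr1 Cx43-/- nodes, and it shares the depleted libraries with the first. On the deposited scale 2 members were higher and 12 lower, against 2.69% and 40.7% of all tested genes, with medians of -0.11 and -0.58. The higher ones were Atp5e, at 529, 318 and 359 CPM in Cx3cr1 Cx43-/- and 673, 930 and 545 CPM in depleted nodes (0.83, SE 0.27, limma adjusted p = 0.016), and Ndufa2, at 218, 146 and 164 CPM against 273, 434 and 219 CPM (0.77, SE 0.25, limma adjusted p = 0.0191). Both were free of overlap, and both calls were lost without library 5, 6 or 8. In all, 2 members were free of overlap on the higher side and 15 on the lower, against 3.39% and 50.6% of all tested genes. The 12 members called lower were Sdha, Sdhd, Uqcrc1, Uqcrc2, Ndufs1, Ndufa9, Ndufa10, Atp5a1, Atp5b, Atp5c1, Atp5s and Atp5sl. On the common total 25 members were higher and 7 lower, against 8.47% and 20.9%, and with median-of-ratios scaling 38 and 2, against 13.1% and 12.9%. Atp5e and Ndufa2 were higher and Uqcrc2 and Atp5sl lower on all 3 scales.

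Other mitochondrial genes place these values. Of 18 genes of the TCA cycle and pyruvate dehydrogenase, which feed the chain with NADH and succinate, 12 were lower and 0 higher in depleted against control nodes, with a median of -0.72. All tested genes stood at 33.0% lower and 3.23% higher with a median of -0.49 on this scale, and at 13.0% and 13.1% with a median of -0.03 with median-of-ratios scaling. Citrate synthase Cs, for example, was at 585, 482 and 533 CPM in control and 341, 235 and 187 CPM in depleted nodes (-1.11, SE 0.23, limma adjusted p = 0.000869). With median-of-ratios scaling 8 of the 18 were lower and 0 higher. Of 17 glycolysis genes 11 were lower and 0 higher (median -0.76). Under median-of-ratios scaling the counts for glycolysis were 7 lower and 1 higher. Of 20 assembly factors of complexes II to V 10 were lower and 0 higher (median -0.64), and median-of-ratios scaling left 3 lower and 2 higher. Of 9 assembly factors of complex I 3 were lower and 0 higher (median -0.54), a share near that of all tested genes, and 1 was lower with median-of-ratios scaling. Of 74 mitochondrial ribosomal protein genes 19 were lower and 2 higher (median -0.34), and after median-of-ratios scaling 5 were lower and 11 higher (median 0.14). Of 18 protein import genes 3 were lower and 0 higher (median -0.17), and after median-of-ratios scaling 1 was lower and 5 were higher (median 0.31). Of 7 carriers and porins 2 were lower and 0 higher. None of these 7 passed under median-of-ratios scaling. Of 8 subunit genes outside the symbol rule 1, Cyc1, was lower and 0 were higher. Under median-of-ratios scaling 3 of the 8 were higher and 1 lower.

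Among the regulators, 7 of 18 were lower and 0 higher on the deposited scale (median -0.51), near the 33.0% of all tested genes, and under median-of-ratios scaling 4 were lower and 1 higher. Esrra, an estrogen-related receptor that acts with PGC-1alpha on these genes, was at 103, 60.2 and 79.9 CPM in control, 74.9, 79.5 and 76.4 CPM in Cx3cr1 Cx43-/- and 40.1, 33.9 and 19.6 CPM in depleted nodes (-1.39, SE 0.24, limma adjusted p = 0.000205). Esrrg was at 22.9, 17.8 and 20.3 CPM against 10.94, 10.95 and 8.24 CPM in depleted nodes (-0.99, SE 0.23, limma adjusted p = 0.00274). Tfam, the factor that packages and transcribes mitochondrial DNA, changed by -0.65 (SE 0.23, limma adjusted p = 0.0301), and Gabpa, the DNA-binding subunit of GABP, by -0.61 (SE 0.22, limma adjusted p = 0.0371). Both of these calls were lost on either rescaling, that of Tfam also without library 1, 3 or 9 and that of Gabpa without library 1, 3, 8 or 9, whereas Esrra and Esrrg passed in each of these fits. Ppargc1a, which encodes PGC-1alpha, did not pass, at 39.0, 27.5 and 35.0 CPM against 30.3, 26.4 and 22.7 CPM, nor did Nrf1, at 11.4, 7.21 and 8.57 CPM against 13.3, 8 and 6.10 CPM. In Cx3cr1 Cx43-/- against control 0 genes of any of these lists passed.

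Markers of cell types that the dissected tissue could hold moved in the same comparison. Of 12 cardiomyocyte markers 4 were lower and 0 higher in depleted nodes (median -0.54), close to the 33.0% lower and the median of -0.49 of all tested genes, with a summed level of 18264 to 29982 CPM against 35198 to 38686 CPM in control. All 7 tested AV node markers were lower (median -2.36), with a summed level of 109 to 154 CPM against 567 to 736 CPM. Fibroblast markers summed to 2546 to 2572 CPM against 2591 to 2979 CPM, and 1 of 7, Postn, was higher, a call lost without library 1, 2, 3 or 9. Adipocyte markers summed to 366, 748 and 269 CPM in libraries 7, 8 and 9 against 249 to 286 CPM in control, and library 8 was also the one highest for 28 members. Of the 4 brown adipocyte markers, Ucp1 and Elovl3 were at 0 in at least 1 library, and the list summed to 34.7 to 46.4 CPM against 44.0 to 51.4 CPM. Endothelial markers were lower in 3 of 5 genes, and of 4 erythroid markers 0 passed. The part of these cell types in the members' values was not tested.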

How the data were processed

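Total RNA of microdissected AV nodes was treated with DNase and made into directional libraries, per the labels' protocols. The submitters' processing notes name the mm9 build, edgeR, HTSeq 0.6.0 and STAR 2.3.0 and say nothing of their roles. The authors deposited CPM rounded to 2 decimals, in 9 columns that were matched to samples by name. The members and gene lists were chosen with earlier results of these data known.

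The fit was limma 3.58.1 (R 4.3.3) on log2(CPM + 0.5), with 1 model for the 9 libraries, an empirical Bayes prior that follows the mean level, and two-sided tests. The 12925 genes with 1 CPM or more in 3 or more libraries entered, and a call needed an adjusted p (Benjamini-Hochberg) under 0.05. The pseudocount makes changes of low genes appear smaller. The fit was tested on simulated data with 200 of 12925 genes changed. For Cx3cr1 Cx43-/- against control it recovered 34.4% of log2 changes of 1 and 92% of log2 changes of 2, for depleted against control 35.4% and 89.2%, and for depleted against Cx3cr1 Cx43-/- 38.4% and 91%. False calls made up 3.73%, 4.66% and 5.24% of calls, in the same order. The simulation drew genes independently, with the same spread in all groups and no shift of whole libraries. These rates may therefore not hold for the data. Genes named were, per comparison and complex, up to 4 with the smallest p, plus a fixed set of catalytic, isoform and regulatory genes. Others are named as examples of a group or where the text says so. Isoform ratios and shares were tested by exact permutation over libraries. Transcript lengths came from GENCODE M21 (78 of 78 members and 12793 of 12925 genes matched), and promoters from RefSeq GRCm38.p6. As the data are on mm9, no coordinate of theirs is given. Alternatives were other pseudocounts, no filter, both rescalings, fits of 2 groups and each library left out. Without a statement of pooling, p-values measure the spread between these libraries. Figures were drawn with matplotlib 3.10.9.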

Additional observations from a re-analysis of the deposited data

How the results depend on the processing

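Shares of all tested genes called were taken only on the deposited scale and both rescalings. Counts of members in the other settings below have no such background. For macrophage-depleted against control, 11 members were lower. That count was 4 without the CPM filter, 3 with median-of-ratios scaling, 5 in a fit of only the 2 groups and 4 to 20 with a library left out (4 without control library 1 or 3, 6 without library 8, 20 without library 7). The count of 0 higher became 13 on the common total, 20 with median-of-ratios scaling and 0 to 4 with a library left out (4 without library 9). The median became 0.12 on the common total and 0.27 with median-of-ratios scaling, and with a library left out ranged from -0.33 to 0.0098, the last without library 9. Against Cx3cr1 Cx43-/-, the 2 higher became 0 without the filter, 25 on the common total, 38 with median-of-ratios scaling and 0 to 12 with a library left out (12 without library 9). The 12 lower became 7 without the filter, 7 on the common total, 2 with median-of-ratios scaling, 6 in a fit of 2 groups and 5 to 20 with a library left out. The median became 0.27 and 0.44 on the other scales and -0.23 to 0.11 with a library left out. Ndufa9 changed by 0.00496 there with median-of-ratios scaling. For Cx3cr1 Cx43-/- against control every alternative gave 0 calls; its difference in the Cox6a2 to Cox6a1 ratio ranged from -0.17 to 0.0025 and in Cox8b to Cox8a from -0.31 to 0.0096 with a library left out. The members' share, 0.16 points higher in depleted than in control nodes, ranged from -0.12 to 0.41. The causes of these changes were not tested, and fits with a library left out also had fewer libraries. The leave-one-out values of the length relation were added after seeing the data. No paired analysis was possible because the library numbers run from 1 to 9 and no number is shared between groups.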
